A study of Mus musculus with 16 samples.

Results

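The genes described here are 10 members of the NF-kappaB system. Among them are the subunits Nfkb1, Nfkb2 and Relb, the inhibitor family genes Nfkbia, Nfkbie and Nfkbiz, and the feedback genes Tnfaip3 and Birc3. The adhesion molecules Icam1 and Vcam1 complete the list. All members were taken as every probe set whose gene symbol in the platform annotation was one of these names. Of the 10 members, 9 had a probe set annotated with that gene symbol alone. Such probe sets were 21 of the 45101 on the array, and 20 of the 21 exceeded the minimum signal of 15.5 on at least 3 arrays. Nfkb1 was not analysed here. The Birc3 probe set that did not, 1425223_at, read 0.8 to 16.6 on the 16 arrays, and all 9 members had at least 1 probe set in the tests.

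The 16 Affymetrix arrays profiled cultured mouse aortic smooth muscle cells, 8 from wild-type and 8 from Hey2 knockout mice, both on a mixed C57BL/6 and 129SvJ background. Hey2 encodes a transcriptional repressor of the Notch pathway. All cells had been taken from aortas stripped of their adventitia, by mincing and enzymatic digestion, and were used at passage 10 to 20, their purity having been judged by immunostaining of sm alpha actin and of calponin. They were kept for 48 h in 0.4% FCS and then given 5 ng/ml human PDGF-BB, a growth factor that drives smooth muscle cells to divide and migrate. RNA was taken at 0, 15, 30, 60, 120, 180, 240 and 480 min, with 1 array per genotype and time, in order to find transcripts that responded differently to PDGF in the 2 genotypes. No course without PDGF was analysed here, so a change with time cannot be told apart from other effects of time in the fresh medium. How many mice or isolates contributed is not in the labels. The p-values therefore reflect the scatter among arrays of different times alone, possibly a technical one, and genotype cannot be told apart from differences between isolates.

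NF-kappaB is a family of dimeric transcription factors held in the cytoplasm by IkappaB proteins. When a receptor for a cytokine or a microbial product is engaged, the IkappaB kinase complex marks the inhibitor for destruction, and the freed dimers enter the nucleus and bind kappaB sites. Several of their targets are their own inhibitors and subunits, so the response is self-limiting. In the vessel wall the pathway is known for the chemokines and the leukocyte adhesion molecules ICAM-1 and VCAM-1.

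RefSeq (GRCm38.p6) promoter windows were at hand for 6 of the 10 members, Nfkb2, Tnfaip3, Nfkbia, Nfkbie, Birc3 and Icam1, in 9 windows. The stretches of 160 bases before the start of 4 of them are shown, each holding kappaB-like letters. As described below, Nfkb2 and Tnfaip3 were called higher at late times in both genotypes, Nfkbia in wild type alone and Icam1 in neither. Capitals mark each match to the kappaB consensus on either strand and each match, on either strand, to the 9-letter word GGAAATTCC, a word chosen after the sequences had been seen. The word and the consensus overlap at the site in Nfkbia.
Nfkb2, chr19:46304577-46304736, plus strand: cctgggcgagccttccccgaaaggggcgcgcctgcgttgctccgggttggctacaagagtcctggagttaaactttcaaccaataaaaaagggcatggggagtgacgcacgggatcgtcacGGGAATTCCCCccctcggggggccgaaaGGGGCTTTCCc
Tnfaip3, chr10:19015411-19015570, minus strand: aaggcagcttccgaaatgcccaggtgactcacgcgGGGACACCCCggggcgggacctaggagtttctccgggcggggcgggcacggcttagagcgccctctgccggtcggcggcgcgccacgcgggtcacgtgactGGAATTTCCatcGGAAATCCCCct
Nfkbia, chr12:55492648-55492807, minus strand: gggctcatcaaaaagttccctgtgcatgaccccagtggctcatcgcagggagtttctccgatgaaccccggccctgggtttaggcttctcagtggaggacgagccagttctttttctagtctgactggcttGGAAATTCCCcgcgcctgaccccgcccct
Icam1, chr9:21015780-21015939, plus strand: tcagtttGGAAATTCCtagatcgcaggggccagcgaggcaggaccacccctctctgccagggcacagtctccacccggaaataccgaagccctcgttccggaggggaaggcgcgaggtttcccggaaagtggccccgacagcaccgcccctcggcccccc
The Nfkb2 window shown held 3 matches to the consensus, which began 39, 38 and 11 bases before the start, the first 2 of them overlapping. Nfkb2 windows at other starts held 1 match each, 236 and 225 bases before those starts. In the Tnfaip3 window shown there were 2 matches to the consensus, 125 and 12 bases before the start, with the 9-letter word between them at 24 bases. A Tnfaip3 window at another start held neither. In Nfkbia a single site, 29 bases before the start, matched both. Icam1 held the word at 153 bases before the start and no match to the consensus in its 250-base window. Nfkbie had 1 match to the consensus, 106 bases before its start, and Birc3 had none. Over 250 bases before the start, 6 of the 9 member windows, from 4 members, held the consensus, against 7.25% of all 32851 windows. Several of these windows are starts of the same gene, Nfkb2, and the members were listed as genes of the NF-kappaB system. The count of the consensus is therefore a description and no test of enrichment. The word stood in 3 member windows and in 0.286% of all. It was chosen after these sequences had been seen, so its count here serves as a description only. All these sites are matches of letters, not measured binding.

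The deposited signals were not on one scale, with a trimmed mean of 81.0 on the wild-type 30 min array and 163.5 to 342.5 on the others, so the arrays were quantile normalized. Signals below are normalized intensities, and differences are on the scale log2(signal + 4.6), which understates changes of dim genes. A gene is called when its limma p, adjusted over all 14456 genes tested by the Benjamini-Hochberg method, was under 0.05. The libraries labelled wild type 60 min and wild type 480 min stood apart. Over all genes, the deviation of the 60 min library from its genotype's mean correlated at 0.563 with that of the knockout 480 min library and at -0.320 with that of the knockout 60 min library. For the wild-type 480 min library these values were 0.446 with knockout 60 min and -0.369 with knockout 480 min, while at the other 6 times the genotypes correlated at 0.366 to 0.509 with each other. The labels were kept, the comparison of early and late times did not use these times, and genotype differences of the members are given with and without them. Hey2 itself (1418106_at) read 100.7 to 113.3 in wild type from 0 to 30 min, 14.0 to 19.3 from 60 to 240 min and 75.2 at 480 min, against 23.3 to 63.3 in the arrays labelled knockout. It was thus higher in the arrays labelled knockout from 60 to 240 min. The sources used here do not give which part of the gene was deleted, so this probe set does not check the genotype, and genotypes are those of the labels throughout.

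Across the 9 members, the clearest change in time was a shared rise of Nfkb2, Relb and Tnfaip3 between the first 30 min and 120 to 240 min, in both genotypes. Nfkbiz was already high at 30 min in both genotypes, and again in the array labelled wild type 480 min. Icam1 was lower and Birc3 higher in knockout cells, and neither was called between the windows. In wild type 4 of the 9 members were called higher and 1 lower between the windows, against 36.7% of all genes called. In knockout 3 were called higher and none lower, against 19.0% of all genes. Without scaling between arrays 3 and 0 members were called, and the share of all called genes that were higher late went from 41.0% to 76.1% in wild type and from 45.2% to 89.0% in knockout. The median difference of the members was 0.23 in wild type and 0.11 in knockout, and that of all genes was -0.06 and -0.07.

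**Figure D1:**
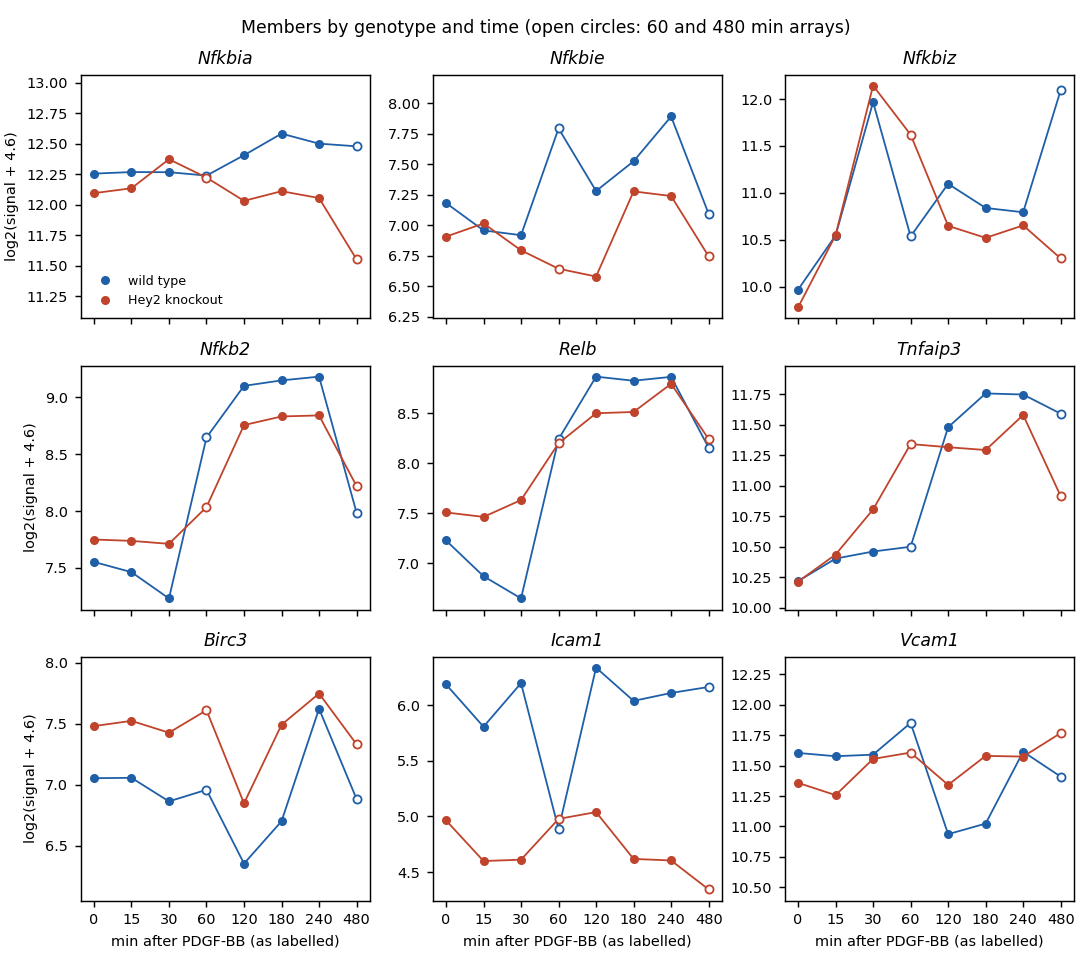
Level of each member, as log2(normalized signal + 4.6), against the labelled time after PDGF-BB in min (evenly spaced, not to scale), 1 array per point, wild type in blue and knockout in red, open circles for the 60 and 480 min arrays. Nfkb2, Relb and Tnfaip3 are higher at 120 to 240 min than at 0 to 30 min in both genotypes, Nfkbiz is high at 30 min, and Icam1 lies lower in knockout at every time other than 60 min.

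Nfkb2 encodes the precursor of the DNA-binding subunit of the non-canonical pathway. In wild-type cells its signal (1425902_a_at) was 183.2, 171.8 and 145.8 at 0, 15 and 30 min and 544.4, 563.1 and 576.1 at 120, 180 and 240 min. In knockout cells it was 210.7, 208.8 and 205.1 early and 427.6, 451.0 and 454.0 late. For this probe set the windows did not overlap in either genotype. Its wild-type arrays were the lower of the 2 genotypes at each early time and the higher at each late time. At 60 and 480 min the arrays read 396.1 and 249.0 in wild type and 257.6 and 293.5 in knockout, between the windows. The fitted rise was 3.31-fold in wild type (1.73 ± 0.12 SE on the log2 scale, adjusted p = 2.24e-07) and 2.11-fold in knockout (1.08 ± 0.12, adjusted p = 3.65e-05). The second probe set, 1429128_x_at, rose in wild type by 0.995 ± 0.318 (adjusted p = 0.0271 over 26489 probe sets). In knockout it moved by 0.59 ± 0.32 (adjusted p = 0.249), and its wild-type 30 min array, at 206.2, already lay within its late range of 198.5 to 248.9. The knockout 30 min array of this probe set, at 150.0, also lay within the knockout late range of 131.3 to 198.6. Wild type was here the higher at 0 min (89.8 against 87.0) and 30 min, and the lower at 15 min (70.0 against 89.3).

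Relb, the partner of the processed Nfkb2 product, followed the same course. Its signal (1417856_at) was 145.2, 112.3 and 95.6 at 0, 15 and 30 min in wild type and 463.0, 449.9 and 462.2 at 120, 180 and 240 min. Knockout arrays read 177.4, 171.9 and 193.7 early and 358.0, 361.1 and 440.3 late. Here too the windows did not overlap, and wild type was below knockout at each early time and above it at each late time. The rise was 3.84-fold in wild type (1.94 ± 0.15, adjusted p = 6.93e-07) and 2.10-fold in knockout (1.07 ± 0.15, adjusted p = 3.22e-04). At 60 min the genotypes read 298.2 and 289.6, and at 480 min 280.8 and 298.5, in wild type and knockout. Over the 16 arrays Nfkb2 and Relb correlated at r = 0.951, and Tnfaip3 at 0.850 with Relb and 0.778 with Nfkb2. These 16 points share arrays, scaling and the rise with time and serve as a description only.

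Tnfaip3 encodes a ubiquitin-editing enzyme that shuts off signalling upstream of the IkappaB kinase. In wild type it read (1433699_at) 1186.8, 1350.3 and 1405.9 at 0, 15 and 30 min and 2853.5, 3458.2 and 3436.8 at 120, 180 and 240 min. Knockout arrays read 1183.8, 1381.4 and 1786.4 early and 2545.8, 2506.0 and 3059.1 late. All late arrays lay above all early ones, and knockout had reached 2593.0 at 60 min while the array labelled wild type 60 min read 1444.7. At 480 min the order was turned, with 3081.5 in wild type and 1927.8 in knockout. The rise was 2.46-fold in wild type (1.30 ± 0.14, adjusted p = 9.18e-06) and 1.88-fold in knockout (0.91 ± 0.14, adjusted p = 4.84e-04). The dimmer probe set 1450829_at rose in both genotypes as well, by 1.88 ± 0.30 in wild type (adjusted p = 2.85e-04) and by 0.98 ± 0.30 in knockout (adjusted p = 0.0402). On it the array labelled wild type 60 min, at 110.3, already lay above the early wild-type range of 30.6 to 42.5, with knockout at 150.7. Its knockout windows overlapped, with 58.8 at 180 min and 69.8 at 30 min.

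The wild-type rises of Nfkb2, Relb and Tnfaip3 were called under all 17 alternative settings, and those in knockout under 16, being lost without scaling between arrays (1.31, 1.28 and 1.22, all larger than with scaling, with adjusted p = 0.231, 0.242 and 0.203). Markers of RNA integrity moved with the windows in wild type. The signal ratio of the 3′ to the 5′ probe set of Actb was 2.41 to 3.88 at 0 to 30 min and 1.53 to 1.84 at 120 to 240 min, while in knockout it was 1.95 to 3.71 and 1.54 to 2.44. Of 7 smooth muscle markers, 5 were called higher late in wild type and 3 in knockout. Of 6 tested adventitial fibroblast markers 3 were called lower and 1 higher late in wild type, and 1 lower in knockout. Among all genes 36.7% were called between the windows in wild type and 19.0% in knockout. The part of RNA integrity and of these markers in the rises was not tested.

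**Figure D2:**
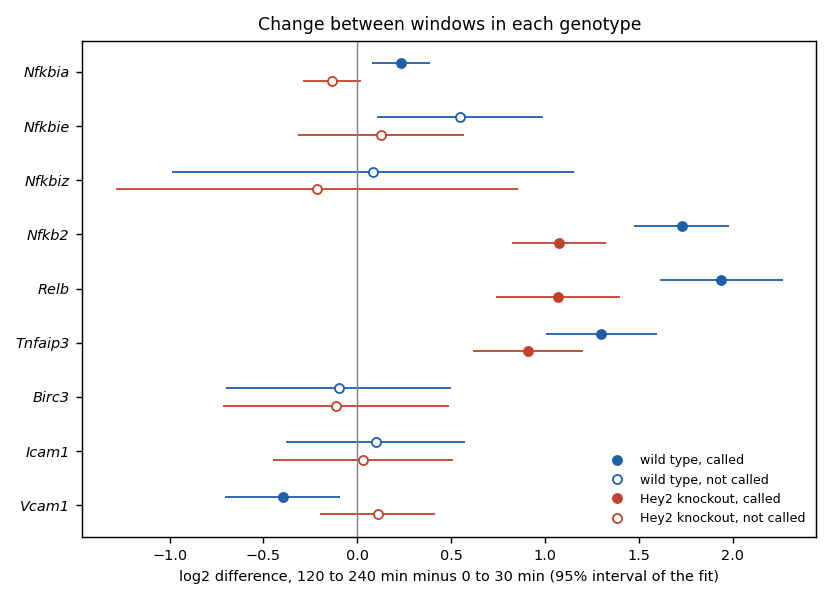
Log2 difference between the mean of 120, 180 and 240 min and the mean of 0, 15 and 30 min for each of the 9 members, with bars for the 95% interval of the fit, wild type in blue and knockout in red, filled where the adjusted p was under 0.05. The intervals of Nfkb2, Relb and Tnfaip3 lie above 0 in both genotypes, with the knockout estimate left of the wild-type one for each.

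The rises of Nfkb2, Relb and Tnfaip3 were smaller in knockout than in wild type, but the test of the difference did not call them. The knockout rise minus the wild-type rise was -0.65 for Nfkb2 (95% interval -1.01 to -0.30, adjusted p = 0.116), -0.87 for Relb (-1.34 to -0.41, adjusted p = 0.107) and -0.39 for Tnfaip3 (-0.81 to 0.03, adjusted p = 0.491). Over the alternatives the adjusted p ran from 0.0979 to 1 for Nfkb2 and from 0.0959 to 1 for Relb. With limma, 0 of the 9 members were called for this difference, against 0.719% of all genes, and 4 of the 9 had an unadjusted p under 0.05, as did 11.1% of all genes: Nfkb2, Relb, Nfkbia and Vcam1. On simulated data this test recovered 28% of 2-fold and 73.5% of 4-fold differences.

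Nfkbiz encodes a nuclear IkappaB protein that acts as a cofactor for a subset of secondary targets. Its signal (1417483_at) was 995.2, 1488.3 and 3997.6 at 0, 15 and 30 min in wild type and 873.0, 1491.5 and 4517.4 in knockout, so that both genotypes peaked among these 3 times at 30 min. By 120, 180 and 240 min it had come down to 2183.2, 1825.8 and 1769.0 in wild type and to 1599.3, 1462.8 and 1604.9 in knockout. At 60 min it read 1479.5 in the array labelled wild type and 3142.9 in knockout, and at 480 min 4367.5 and 1255.5. Compared between 30 and 0 min with time as a factor over the 12 arrays without 60 and 480 min, a comparison added after the course had been seen, Nfkbiz rose 4.54-fold (2.18 ± 0.13, adjusted p = 3.77e-06). It was the 1 member of 9 called, against 0.408% of all genes. With the 60 and 480 min arrays kept as labelled, the estimate was the same and its adjusted p was 0.515, and without scaling it was 1.54 with an adjusted p of 0.432. The other Nfkbiz probe sets rose too, 1448728_a_at by 2.51 ± 0.27 (adjusted p = 5.74e-04) and 1457404_at by 2.02 ± 0.23 (adjusted p = 1.13e-03). Because the peak lies inside the early window, the comparison of windows did not pick it up (0.08 ± 0.49 in wild type). With 0 and 15 min alone as the early window, the difference in wild type was 0.65 (adjusted p = 0.036).

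Among the other target genes of the pathway, Ier3, an immediate early survival gene, and Ptgs2, the inducible cyclooxygenase, were called higher at 30 than at 0 min, 2 of 18 tested against 0.408% of all genes, and 0 of 18 without scaling between arrays. Ier3 rose by 1.46 ± 0.16 (adjusted p = 4.75e-04) and Ptgs2 by 2.93 ± 0.38 (adjusted p = 2.43e-03), and without scaling these were 0.85 (adjusted p = 0.432) and 2.17 (adjusted p = 0.171). None of 37 tested pathway components was called by limma, with 3 at an unadjusted p under 0.05 (8.11%, against 5.08% of all genes). Tnfaip3 moved by 0.42 at 30 min (adjusted p = 0.742).

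Nfkbia encodes IkappaB alpha, the classical inhibitor that NF-kappaB itself induces. Its signal (1420088_at) was 4883.9, 4927.8 and 4924.7 at 0, 15 and 30 min in wild type and 5423.0, 6131.3 and 5790.4 at 120, 180 and 240 min. Knockout arrays read 4370.3, 4494.5 and 5301.5 early and 4184.0, 4417.8 and 4251.5 late, with the 30 min array the highest and the 480 min array, at 2997.0, the lowest of the genotype. The wild-type windows did not overlap, those of knockout did. The wild-type rise was 1.18-fold (0.23 ± 0.07, adjusted p = 0.0204), called under 9 of 17 alternatives and lost when the 0, 15, 180 or 240 min arrays were left out (0.19 to 0.24, adjusted p = 0.0514 to 0.111), and the knockout difference was -0.14 ± 0.07 (adjusted p = 0.216). Of the 5 Nfkbia probe sets, 1438157_s_at also rose in wild type (0.45 ± 0.11, adjusted p = 7.15e-03), while 1420089_at, 1448306_at and 1449731_s_at moved by 0.13 to 0.34 without being called. All 5 lay above 0 in the 30 to 0 min comparison, at 0.15 to 0.58, and none was called.

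Between genotypes Nfkbia was 1.23-fold lower in knockout (-0.30 ± 0.10, adjusted p = 0.0396), a call held without the 60 and 480 min arrays (-0.25, adjusted p = 0.0140), while without scaling between arrays the sign turned (0.02, adjusted p = 0.980). Leaving out the arrays of 0, 15, 120, 180 or 240 min alone also ended the call (-0.33 to -0.28, adjusted p = 0.0563 to 0.0980). The knockout array was the lower at 7 of the 8 times, the exception being 30 min. Its other 4 probe sets lay lower in knockout as well, by -0.54 to -0.30, and 1448306_at was called (adjusted p = 0.0295; -0.49 and adjusted p = 7.17e-03 without the 60 and 480 min arrays).

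Nfkbie, which encodes IkappaB epsilon, read (1458299_s_at) 116.2 to 140.5 at 0 to 30 min and 150.7, 179.3 and 232.6 at 120, 180 and 240 min in wild type. In knockout it read 106.3 to 124.5 early and 91.0, 150.4 and 146.4 late, and the array labelled wild type 60 min, at 217.0, stood well above its knockout counterpart at 95.2. The wild-type windows did not overlap, and the difference of 0.55 ± 0.21 missed the threshold (adjusted p = 0.0514). It passed with 180 and 240 min alone as the late window (0.69, adjusted p = 4.24e-03). Across all times Nfkbie was 1.35-fold lower in knockout (-0.43 ± 0.14, adjusted p = 0.0342). Without the 60 and 480 min arrays this was -0.32 (adjusted p = 0.0530), no longer called. Leaving out the 0, 60, 120, 180 or 240 min arrays alone ended the call as well (-0.46 to -0.33, adjusted p = 0.0530 to 0.0860). Of 19 alternatives 11 kept the call, and over all 19 the difference ran from -0.50 to -0.11, with adjusted p of 0.0272 to 0.864. The second probe set, 1431843_a_at, differed by -0.36 ± 0.15 (adjusted p = 0.0964).

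Birc3 encodes a ubiquitin ligase that restrains the kinase of the non-canonical pathway and protects cells from death. Its tested probe set (1421392_a_at) read 77.1 at the lowest, 116.6 at the median and 192.4 at the highest over the 8 wild-type arrays, and 110.5, 174.6 and 210.3 over the 8 knockout arrays. The ranges overlapped, but at each of the 8 times the knockout array was the higher. Birc3 was 1.41-fold higher in knockout (0.50 ± 0.10, adjusted p = 2.94e-03), and 0.48 without the 60 and 480 min arrays (adjusted p = 3.93e-03). It was called under all 19 alternatives. The lowest array of each genotype was that of 120 min and the highest that of 240 min, and the windows did not differ beyond the spread (-0.10 ± 0.28 in wild type, adjusted p = 0.825, and -0.12 ± 0.28 in knockout, adjusted p = 0.826).

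Icam1, the ligand of the leukocyte integrin LFA-1, showed the largest genotype difference of the 9 members. Its signal (1424067_at) in wild type was 68.2, 51.3, 68.7, 25.0, 76.1, 61.0, 64.4 and 67.0 from 0 to 480 min. Knockout arrays read 26.6, 19.6, 19.9, 26.9, 28.3, 20.0, 19.7 and 15.7 in the same order. Every wild-type array but the one labelled 60 min lay above every knockout array, and that array, at 25.0, fell among the knockout values. The knockout signals stood close to the minimum of 15.5 used to admit a probe set, so the size of the difference depends on the offset. Icam1 was 2.37-fold lower in knockout (-1.24 ± 0.20, adjusted p = 7.44e-04), and without the 60 and 480 min arrays the difference was -1.37 (adjusted p = 1.97e-05). An offset 3 times smaller gave -1.35 and one 3 times larger gave -1.02, and the call held under all 19 alternatives. PDGF-BB was not followed by a change of Icam1 beyond the spread between the windows, 0.10 ± 0.22 in wild type (95% interval -0.38 to 0.58, adjusted p = 0.778) and 0.03 ± 0.22 in knockout (-0.45 to 0.51, adjusted p = 0.951).

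Vcam1, the ligand of the integrin VLA-4 and a known marker of activated smooth muscle, had 3 probe sets that disagreed. The brightest, 1448162_at, read 3106.2, 3048.5 and 3075.3 at 0, 15 and 30 min in wild type and 1956.4, 2077.0 and 3127.8 at 120, 180 and 240 min. Knockout arrays read 2620.5, 2442.3 and 3002.3 early and 2590.0, 3055.4 and 3041.1 late. The wild-type fall of 1.32-fold (-0.40 ± 0.14, adjusted p = 0.0403) was called under 5 of 17 alternatives, and not when the 0, 15, 30, 120 or 180 min arrays were left out (-0.41 to -0.27, adjusted p = 0.0893 to 0.180). In these arrays the low values were those of 120 and 180 min. The probe sets 1451314_a_at (-0.01 ± 0.11, adjusted p = 0.966) and 1415989_at (0.22 ± 0.31, adjusted p = 0.638) were not called for it. Between genotypes the brightest probe set did not differ beyond the spread (0.05 ± 0.11, adjusted p = 0.740), while 1451314_a_at was 1.23-fold lower in knockout (-0.29 ± 0.08, adjusted p = 0.0207; -0.31 and adjusted p = 4.40e-03 without the 60 and 480 min arrays). That probe set read 1528.7 at the lowest and 2084.0 at the highest in wild type, and 1107.1 to 1603.0 in knockout, so that the genotypes overlapped.

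**Figure D3:**
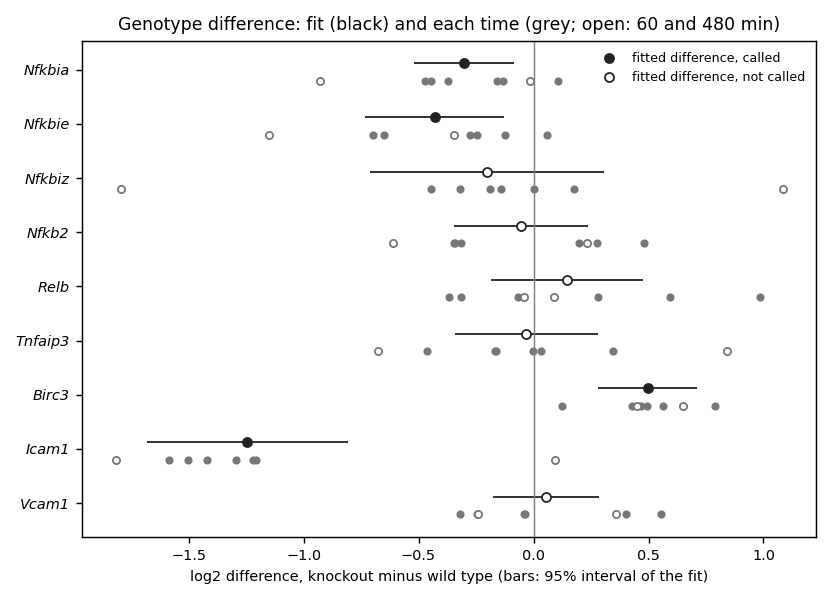
Log2 difference between knockout and wild type for each of the 9 members, as the fitted value with its 95% interval (black, filled where the adjusted p was under 0.05) and at each of the 8 times (grey, open for 60 and 480 min). Icam1 lies left of 0 at 7 of 8 times and Birc3 right of 0 at all 8, while Nfkbiz spreads to both sides at 60 and 480 min.

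Of the 9 members, 1 was called higher and 3 lower in knockout, against 30.3% of all genes. Among all genes 54.0% of the calls were higher in knockout, and without scaling 87.9% were, with the median of all genes moved from -0.02 to 0.28. Leaving out the 60 and 480 min arrays raised the share of all genes called to 40.6%. Nfkbiz, Nfkb2, Relb, Tnfaip3 and the main Vcam1 probe set were not called, with differences of -0.20 to 0.15. Without the 60 and 480 min arrays their differences were -0.15, -0.01, 0.19, -0.07 and 0.05 in that order, with adjusted p of 0.138 to 0.964.

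The genotypes also differed in markers of cell type. The summed signal of 7 smooth muscle markers was 12353.6 to 16361.2 in wild type and 6533.0 to 9568.3 in knockout. Acta2 alone read 8216.9 to 9637.6 in wild type and 5203.3 to 6659.6 in knockout. Of the 7, 5 were called lower in knockout, from -0.62 for Acta2 to -2.84 for Myl9, while Smtn (-0.25) and Des (0.29) were not called. The calponin gene Cnn1 was among the 5 (-2.35), at 41.4 to 270.6 in wild type and 2.9 to 46.2 in knockout. The summed signal of 7 mesothelial markers was 1028.7 to 1921.9 in wild type and 12560.6 to 14845.0 in knockout, and all 7 were called higher. Adventitial fibroblast markers summed to 1803.2 to 6765.0 and 2894.2 to 5149.9, so that the sums overlapped, while of the 6 that were tested 4 were called higher and 1 lower in knockout (median 1.55). Lum and Dcn carried the sums. Lum was the 1 called lower (-3.11, adjusted p = 3.97e-05), at 412.3 to 3085.4 in wild type and 111.7 to 274.4 in knockout. Dcn was called higher (0.56, adjusted p = 0.0329), and Pdgfra was not called (-0.20). Thy1 read 6.9 to 26.6 in wild type and 126.4 to 210.8 in knockout, Serpinf1 0.7 to 29.1 and 105.1 to 154.2, Dpt 1.4 to 19.5 and 36.6 to 74.0, and Pi16 did not pass the filter. Leukocyte and macrophage markers summed to 544.0 to 965.2 in wild type and 836.4 to 1398.5 in knockout, sums carried by Csf1r and Cd14. Only 1 of the 7 tested was called higher (median -0.09), and Ptprc, Itgam and Tyrobp did not pass the filter. Endothelial markers summed to 81.9 to 153.4 and 73.6 to 125.2, and Pecam1, Cdh5, Tie1 and Vwf, 4 of the 9, did not pass the filter. The part of the smooth muscle, mesothelial and other markers in the genotype differences of Icam1, Birc3, Nfkbia and Nfkbie was not tested, and in these bulk samples fewer cells of a type and less RNA per cell cannot be told apart.

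Around the members, 41 further components of the pathway were examined, of which 37 were tested. In wild type 14 rose and 8 fell between the windows (median 0.08), and in knockout 5 rose and 2 fell (median 0.00). These were 59.5% and 18.9% of the 37, against 36.7% and 19.0% of all genes, whose medians were -0.06 and -0.07. Il1r1, the receptor of interleukin-1, rose 4.70-fold in wild type (2.23 ± 0.20, adjusted p = 1.97e-06), its signal being 282.5 to 367.1 early and 1139.0 to 2022.5 late. In knockout it rose 3.86-fold (1.95 ± 0.20, adjusted p = 2.18e-05), with 74.9 to 110.4 early and 336.3 to 375.1 late. Bcl3, a nuclear IkappaB protein, rose 4.13-fold in wild type (2.05 ± 0.23, adjusted p = 1.46e-05) and 3.25-fold in knockout (1.70 ± 0.23, adjusted p = 1.86e-04). Tnfrsf1b, a TNF receptor, rose by 1.09 ± 0.16 in wild type (adjusted p = 1.23e-04) and by 0.63 ± 0.16 in knockout (adjusted p = 0.0131). Birc2, the close relative of Birc3, fell by 1.14 in wild type (adjusted p = 1.95e-04) and by 0.70 in knockout (adjusted p = 0.0131). The inhibitor gene Nfkbib rose by 0.78 ± 0.15 in wild type (adjusted p = 9.72e-04) and by 0.74 ± 0.15 in knockout (adjusted p = 3.71e-03). Ikbkg, the regulatory subunit of the IkappaB kinase, fell by 0.63 in wild type (adjusted p = 2.61e-03) and by 0.68 in knockout (adjusted p = 3.86e-03). None of the 37 was called for a difference in rise between genotypes by limma, with 4 at an unadjusted p under 0.05 (10.8%, against 11.1% of all genes).

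Between genotypes 7 of these 37 components were higher and 7 lower in knockout (median -0.07), 37.8% against 30.3% of all genes, whose median was -0.02. A fit without 60 and 480 min called 7 of them higher and 9 lower. Il1r1 was 3.74-fold lower (-1.90 ± 0.15, adjusted p = 4.62e-06), with 282.5 to 2022.5 in wild type and 74.9 to 375.1 in knockout. Tlr2, a receptor of bacterial lipoproteins, was 2.99-fold lower (-1.58 ± 0.26, adjusted p = 8.68e-04). The receptor-proximal kinase Irak1 was 2.07-fold higher (1.05 ± 0.12, adjusted p = 7.01e-05), and Map3k7, the kinase upstream of the IkappaB kinase, was 1.64-fold higher (0.71 ± 0.09, adjusted p = 2.04e-04). Their ranges over the 8 arrays did not overlap between genotypes for Irak1 and Map3k7, at 404.0 to 781.1 against 820.6 to 1498.2 and at 312.2 to 399.4 against 506.2 to 704.0.

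Of 24 other target genes 18 were tested. Between the windows 6 rose and 1 fell in wild type (median 0.41), and 7 rose and 2 fell in knockout (median 0.04), 38.9% and 50% of the list against 36.7% and 19.0% of all genes. Il6, an inflammatory cytokine, rose 13.4-fold in wild type (3.74 ± 0.39, adjusted p = 8.65e-06), its signal being 32.4 to 99.2 early and 558.1 to 994.4 late. In knockout it rose 3.98-fold (1.99 ± 0.39, adjusted p = 3.18e-03), with 93.6 to 279.3 early and 518.1 to 714.7 late. The monocyte chemokine Ccl2 rose 6.35-fold in wild type (2.67 ± 0.31, adjusted p = 1.83e-05) and 2.13-fold in knockout (1.09 ± 0.31, adjusted p = 0.0231). Csf1, the macrophage growth factor, rose 2.51-fold in wild type (1.33 ± 0.10, adjusted p = 3.63e-07) and 1.70-fold in knockout (0.76 ± 0.10, adjusted p = 1.22e-04). The stress gene Gadd45b rose 2.15-fold in wild type (1.11 ± 0.25, adjusted p = 3.31e-03) and 2.27-fold in knockout (1.18 ± 0.25, adjusted p = 5.08e-03). Irf1, an interferon response factor, fell by 0.98 in wild type (adjusted p = 4.35e-04) and by 0.71 in knockout (adjusted p = 8.81e-03). The difference between these rises was called for none of the 18 by limma, with 3 at an unadjusted p under 0.05 (16.7%, against 11.1% of all genes).

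In the comparison of genotypes 3 of the 18 targets were higher and 5 lower in knockout (median -0.17), 44.4% against 30.3% of all genes, and 5 were higher and 5 lower without the 60 and 480 min arrays. The acute-phase gene Saa3 was 2.93-fold lower (-1.55 ± 0.13, adjusted p = 7.54e-06), with 371.3 to 637.4 in wild type and 142.9 to 193.3 in knockout. Lcn2, a siderophore-binding protein, was 3.60-fold lower (-1.85 ± 0.27, adjusted p = 4.12e-04), with knockout signals of at most 32.3 and partly under the minimum. The chemokine Ccl7 was 2.99-fold lower (-1.58 ± 0.25, adjusted p = 7.45e-04), and the survival gene Bcl2l1 was 1.48-fold higher (0.57 ± 0.09, adjusted p = 6.00e-04).

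Of 12 other adhesion molecules 9 were tested, of which 4 were higher and 1 lower in knockout (median 0.33), 55.6% against 30.3% of all genes, and 4 were higher and 2 lower without the 60 and 480 min arrays. Selp, the adhesion receptor P-selectin, was 4.41-fold higher in knockout (2.14 ± 0.11, adjusted p = 1.58e-07), with 149.4 to 220.0 in wild type and 582.2 to 999.6 in knockout, opposite in direction to Icam1. The junction molecule F11r was 2.33-fold higher (1.22 ± 0.20, adjusted p = 7.91e-04) and the neural adhesion molecule Ncam1 2.07-fold higher (1.05 ± 0.18, adjusted p = 1.36e-03). Mcam was 2.07-fold lower (-1.05 ± 0.17, adjusted p = 8.76e-04). Between the windows 2 rose and 2 fell in wild type, and 2 rose and 1 fell in knockout, 44.4% and 33.3% against 36.7% and 19.0% of all genes. Cd44, the hyaluronan receptor, rose 4.32-fold in wild type (2.11 ± 0.16, adjusted p = 5.41e-07) and 5.60-fold in knockout (2.49 ± 0.16, adjusted p = 5.33e-07). Mcam rose by 1.29 ± 0.19 in wild type (adjusted p = 1.28e-04) and by 0.63 ± 0.19 in knockout (adjusted p = 0.0298). F11r fell by 0.87 in wild type (adjusted p = 1.48e-04) and by 0.52 in knockout (adjusted p = 0.0131), and Alcam fell by 0.52 in wild type (adjusted p = 0.0354) and differed by -0.14 in knockout (adjusted p = 0.647). Every genotype call named in these lists held without the 60 and 480 min arrays, with differences of -2.01 for Il1r1, -1.59 for Tlr2, 1.09 for Irak1, 0.69 for Map3k7, -1.50 for Saa3, -1.83 for Lcn2, -1.46 for Ccl7, 0.55 for Bcl2l1, 2.17 for Selp, 1.21 for F11r, 1.10 for Ncam1 and -0.96 for Mcam. Without scaling between arrays the signs of the differences named for these lists held, apart from Alcam between the windows in knockout (0.107). Fewer were called. Of the pathway components 4 were then higher and 2 lower in knockout, and 3 rose late in wild type and 2 in knockout. For the targets these counts were 2 higher and 4 lower, 6 and 2, and for the adhesion molecules 4 higher and 0 lower, 1 and 1.

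Outside the pathway, the tested genes most like 3 of the members over the 16 arrays were found by Pearson correlation of the normalized log2 values, which carries the genotype difference, the scaling and the array that the points share. For Icam1 they were Abca5 (r = 0.967), Gpc6 (0.957) and Fblim1 (0.957). For Nfkbia they were Nmb (0.841), Dennd2a (0.836) and Rnase1 (0.824), and for Vcam1 they were Slc2a13 (0.864), Mettl8 (0.838) and Uri1 (0.822). Nfkbia and Icam1, both lower in knockout, correlated with each other at 0.698.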

How the data were processed

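The authors hybridised 16 Affymetrix arrays, and the deposited values are linear signal intensities per probe set, made with MAS5 per the submitters' processing notes, with version and scaling target not given in the sources used here. Genotype and time came from the sample titles. The arrays were quantile normalized and put on the scale log2(signal + 4.6), with the 20th percentile of the deposited values as offset. A probe set was tested when it had 1 gene symbol and exceeded 15.5 (40th percentile) on at least 3 arrays, and the brightest such probe set stood for each gene, leaving 14456 genes. Of the 45101 probe sets 34958 had 1 symbol, 932 several and 9211 none in the annotation used. limma 3.58.1 in R 4.3.3 fitted time as a factor plus genotype over 16 arrays (7 residual degrees of freedom), and genotype by window means over 12 arrays (8 residual degrees of freedom), with moderation by intensity trend and Benjamini-Hochberg adjustment at 0.05. A fit over all probe sets and the 30 against 0 min comparison are additions chosen after seeing the data. The 3 arrays of a window are time points, not replicates of one condition, so their number limits the precision.

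All members are named with every probe set. Up to 4 called genes per list and comparison with the smallest p are named, and the 3 genes most correlated with Nfkbia, Icam1 and Vcam1. Members and lists were chosen with earlier results of these data known. The fits were tested on simulated data for 14456 genes with 200 changed: the genotype fit found 75.5% of 2-fold and 96.5% of 4-fold changes, and the figures were for the wild-type windows 53.5% and 88.5%, and for 30 against 0 min 30% and 78.5%. Alternatives covered scaling, offset, filter, probe set choice, moderation, windows and leaving out arrays. Promoter sequences are those of RefSeq, and Nfkb1 was not analysed here.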

Additional observations from a re-analysis of the deposited data

How the results depend on the processing

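Icam1 lower and Birc3 higher in knockout were called under all 19 alternatives, and the wild-type rises of Nfkb2, Relb and Tnfaip3 under all 17, in which leaving out 30 or 120 min is the same fit as the shortened early or late window. The members called, 4 between genotypes, 5 in the wild-type windows, 3 in the knockout windows and 1 between 30 and 0 min, became 2, 3, 0 and 0 without scaling between arrays. In the wild-type windows 3 were called with a common trimmed mean, with the mean of all probe sets, and without the variance trend, and with all 16 arrays 0 were called between 30 and 0 min. Leaving out the arrays of 1 time gave 2 to 4 members between genotypes and 3 to 5 in the wild-type windows. The cause was not tested.

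Signs turned for small differences that were not called, apart from Nfkbia between genotypes. Without scaling, genotype differences were 0.016 for Nfkbia, 0.111 for Nfkbiz, 0.240 for Nfkb2 and 0.313 for Tnfaip3. The windows then gave 0.027 for Birc3 in wild type, 0.136 for Nfkbia, 0.085 for Nfkbiz and 0.080 for Birc3 in knockout, and 0.053 for the Birc3 interaction. Between 30 and 0 min they were -0.453 for Nfkbia, -0.350 for Tnfaip3 and -0.597 for Vcam1. With a common trimmed mean the Icam1 windows gave -0.154 in wild type and -0.081 in knockout, and the interactions were 0.111 for Birc3 and 0.072 for Icam1. The mean of all probe sets gave -0.154 for Vcam1 between genotypes and 0.389 for Nfkb2 between 30 and 0 min. With 0 and 15 min as early window, knockout gave 0.444 for Nfkbiz and -0.028 for Icam1, and the Birc3 interaction was 0.023. With 180 and 240 min as late window, wild type gave -0.010 for Nfkbiz and 0.170 for Birc3, and knockout 0.143 for Birc3 and -0.113 for Icam1.

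Leaving out the arrays of 1 time, genotype differences ran from -0.387 to 0.024 for Nfkbiz, -0.130 to 0.026 for Nfkb2, -0.157 to 0.060 for Tnfaip3 and -0.017 to 0.108 for Vcam1. Wild-type windows ran from -0.347 to 0.654 for Nfkbiz, -0.465 to 0.170 for Birc3 and -0.031 to 0.165 for Icam1. Knockout windows ran from -0.739 to 0.444 for Nfkbiz, -0.308 to 0.143 for Birc3 and -0.113 to 0.149 for Icam1, and the Birc3 interaction from -0.176 to 0.157.

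Over all genes, the 4376, 5311, 2744, 104 and 59 calls (genotype, wild-type windows, knockout windows, interaction, 30 against 0 min) became 2141, 686, 228, 1 and 16 without scaling. The interaction had 44 with the mean of probe sets, 5 without the variance trend, 25 and 274 with the shortened early and late windows, and 1 to 274 with the arrays of 1 time left out. The knockout windows then had 1363 to 3559. Between 30 and 0 min there were 24 without the trend and 3 over all 16 arrays. Dim signals limit Icam1 and the second Birc3 probe set.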
